A study of Mus musculus with 6 samples.

Results

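The classical and non-classical MHC class I heavy chains and their light chain, beta-2 microglobulin, were examined in the cortex of mice at d10 after microglia depletion. Their rows were found by symbol in the table of the series: 9 of its 23366 genes, namely the classical heavy chains H2-K1 and H2-D1, the non-classical heavy chains H2-Q4, H2-Q6, H2-Q7, H2-T22, H2-T23 and H2-M3, and B2m. RNA of brain cortex, frontal by the study's text, from 3 depleted mice (A4, A5 and A6) and 3 littermate controls (A1, A2 and A3) had been sequenced, with 1 library per mouse. All 6 mice were on a C57BL/6 background, carried CX3CR1-CreERT2+/- and were given tamoxifen, which switches on a Cre recombinase under the CX3CR1 promoter. The depleted mice also carried iDTR+/-, a diphtheria toxin receptor that Cre unlocks, and were given diphtheria toxin, which kills the cells that bear the receptor. Whether the controls sequenced here received the toxin is not stated in the sources used here, so an effect of the toxin and an effect of the depletion cannot be told apart. No age is given, and by d10 new microglia have refilled the tissue in this model. The question was how cortical gene expression differed between depleted and control mice.

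Class I molecules stand on the surface of most nucleated cells as a heavy chain bound to B2m, and they show peptides cut from the cell's own proteins to CD8+ T cells and NK cells. The classical chains present to CD8+ T cells, while non-classical chains have narrower tasks, such as the binding of NK cell receptors by Qa-1, the product of H2-T23, and the presentation of formylated peptides by H2-M3. Resting brain holds little class I RNA, much of it in endothelial cells and microglia, and interferons raise it in many cell types.

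The values are FPKM, fragments per kilobase of transcript and per unit of library size, scaled by the authors between libraries, so levels can be set side by side per length. The spacing of low values put the depth behind them at about 14.7 to 20.5 M fragments in controls, and at about 13.8 M for A4, 7.14 M for A5 and 11.3 M for A6, so that 1 fragment on a transcript of 1500 bases was worth between 0.0325 and 0.0934 FPKM. Markers of cortical neurons summed to between 1669 and 1948 FPKM in controls and between 1731 and 1834 FPKM in depleted mice, so the neurons of the labelled tissue were represented in every library. In a clustering of the mice A4 stood apart from the other 5. The labels give no sex, and the methods call the mice sex-matched, but 4 Y-linked genes summed to 5.56 FPKM in A4 and to at most 0.16 FPKM elsewhere, and Xist was at 4.74 FPKM in A3 against 30.9 to 46.7 FPKM in the others. Fold changes of the members and the leading pathway genes are therefore also given without A4.

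The 8 heavy chains lie in the MHC on chromosome 17 and B2m on chromosome 2 (GRCm38, GENCODE M21). H2-K1 spans chr17:33996017-34000347 on the minus strand and H2-D1 chr17:35262730-35267499 on the plus strand. The non-classical members lie farther along the same chromosome, from H2-Q4 at chr17:35379617-35385290 to H2-M3 at chr17:37270220-37274484, and B2m spans chr2:122147686-122153083 on the plus strand. Class I promoters are known for a shared upstream region that holds binding sites for NF-kappaB, interferon regulatory factors and the X and Y boxes used by the NLRC5 complex. The 250 bases before the start of 4 members are shown as examples, from RefSeq on build GRCm38.p6. They are those of H2-K1 at chr17:34000348-34000597 (minus strand), H2-Q4 at chr17:35379367-35379616 (plus), H2-T22 at chr17:36042743-36042992 (minus) and B2m at chr2:122147437-122147686 (plus). Each is written on the gene's own strand, and the capitals mark the match to an interferon-response motif.
H2-K1: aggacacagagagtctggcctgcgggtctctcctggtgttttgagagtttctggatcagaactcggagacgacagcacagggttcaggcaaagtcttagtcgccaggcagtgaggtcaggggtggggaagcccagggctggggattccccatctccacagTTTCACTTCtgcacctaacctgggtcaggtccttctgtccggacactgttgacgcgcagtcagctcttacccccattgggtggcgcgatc
H2-Q4: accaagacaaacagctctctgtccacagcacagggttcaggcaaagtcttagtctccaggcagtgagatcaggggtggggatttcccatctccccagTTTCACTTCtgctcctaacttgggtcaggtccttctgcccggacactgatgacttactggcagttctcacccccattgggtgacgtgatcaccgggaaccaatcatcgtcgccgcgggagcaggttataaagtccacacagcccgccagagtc
H2-T22: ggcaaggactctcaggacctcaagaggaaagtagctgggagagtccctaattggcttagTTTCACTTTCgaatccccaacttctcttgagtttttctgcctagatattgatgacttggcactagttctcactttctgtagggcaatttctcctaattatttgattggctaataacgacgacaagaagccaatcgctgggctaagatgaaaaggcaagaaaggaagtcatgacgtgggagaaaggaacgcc
B2m: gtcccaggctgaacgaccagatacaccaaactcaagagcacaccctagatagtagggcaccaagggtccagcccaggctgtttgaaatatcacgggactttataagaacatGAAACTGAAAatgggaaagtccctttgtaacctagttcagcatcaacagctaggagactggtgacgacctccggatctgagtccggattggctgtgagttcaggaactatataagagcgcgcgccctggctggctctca

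The motif was searched on both strands in a short form, GAANNGAAA, and a long form, GAAANNGAAA. The short form stood in 6 of the 9 members and the long form in the other 3, which were H2-T22, H2-T23 and B2m, so that 9 of 9 upstream windows held 1 or the other, against 8.82% of the 32851 promoter windows of the same length (6.31% for the short form and 2.98% for the long one, with windows that hold both counted under each). The letters TTTCACTTC, the short form on the opposite strand, were the same in all 6 members that held it. With the base before the start counted as -1, they began at -90 in H2-K1, -150 in H2-D1, -153 in H2-Q4, -152 in H2-Q6, -113 in H2-Q7 and -101 in H2-M3. B2m alone had its match on the gene's own strand. Of the other letters searched on both strands, CCAAT, the Y box, was in 9 of 9 members and in 33.8% of all windows. TGACG, the core of the X2 box, was in 7 of 9 and in 17.8%, and GGGNNNNNCC, the NF-kappaB motif, was in 8 of 9 and in 45.8%. Matches were counted at any position in the window, so a match need not be the box itself. The TGACG of H2-T22, at -22 to -18, lay nearer the start than all its CCAAT matches. That of H2-Q4, at -73 to -69, followed the CCAAT match at -79 to -75. The interferon-response matches overlapped no match of these 3 motifs in the members. The motifs were chosen after the members' values and sequences had been seen, near-identical promoters are not independent of each other, and a match is a description of letters, not of binding.

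Differences were tested with limma on the log2(FPKM + 1) scale in 14385 genes, those whose mean over the 6 mice reached 0.5 FPKM. This took in 7 of the 9 members, each with a control mean above the minimum, and left out H2-Q6 and H2-Q7. The mean was higher in depleted mice for all 7, where 48.0% of all genes tested were higher. In limma, 0 of 7 passed an adjusted p of 0.1, where 0.0278% of all genes tested, 4 in number, were called as higher. At an unadjusted p of 0.05, 5 of 7 were higher against 4.79% of all genes tested. The depleted mice lay above every control, without overlap, in the same 5 of 7 against 8.21% of all genes: H2-K1, H2-D1, H2-Q4, H2-T22 and B2m. With 3 mice against 3, an exact permutation test of a single gene cannot go below 0.1. In bulk tissue, more cells of a type that carries class I RNA and more of that RNA per cell cannot be told apart.

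**Figure D1:**
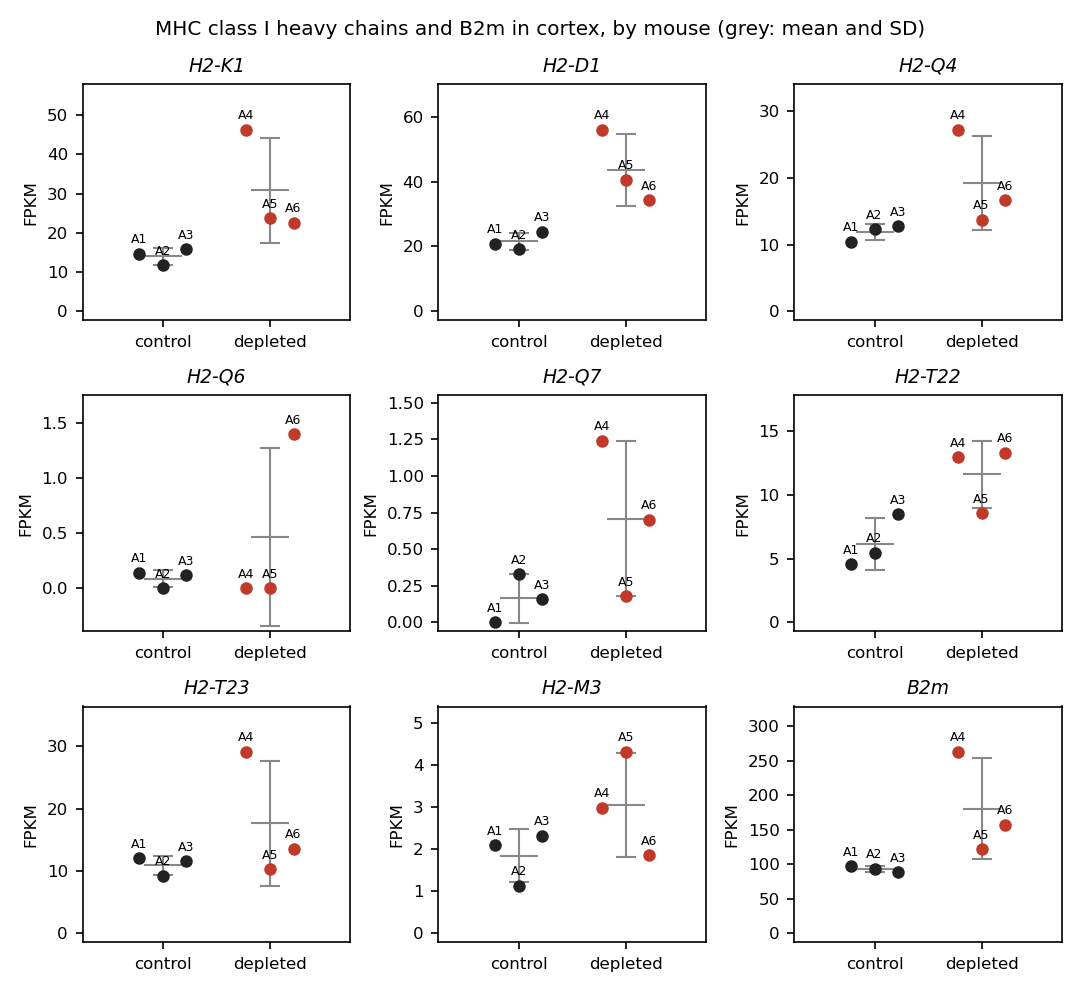
FPKM of each of the 9 members (linear axes that differ between panels) in 3 control mice (black) and 3 depleted mice (red), with the group mean and SD in grey. In H2-K1, H2-D1, H2-Q4, H2-T22 and B2m every depleted mouse lies above every control, and A4 is the highest mouse in 5 of the 7 members that were tested.

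The classical heavy chains had the largest log2 fold changes of the 7 members tested over all 6 mice, an order that did not hold when A4 or A5 was left out. H2-K1, the K molecule that presents peptides to CD8+ T cells, was at 14.7, 11.7 and 15.8 FPKM among the controls A1, A2 and A3 and at 46.2, 23.7 and 22.6 FPKM in the depleted A4, A5 and A6. The lowest depleted mouse was above the highest control, and A4 stood at nearly the sum of the other depleted mice. The means were 14.1 ± 2.14 FPKM (SD, n = 3) in controls and 30.9 ± 13.3 FPKM (SD, n = 3) in depleted mice. The log2 fold change was 1.01 with an SE of 0.249 (limma, adjusted p = 0.370), and 0.69 without A4. H2-D1, the D molecule with the same task, was at 20.9, 19.2 and 24.6 FPKM in controls and at 56.0, 40.6 and 34.3 FPKM in the depleted A4, A5 and A6. All 3 depleted mice lay well above the controls, and the value moved less without A4 than that of H2-K1. Its log2 fold change was 0.96 with an SE of 0.170 and a 95% interval from 0.57 to 1.35 (limma, adjusted p = 0.283), and 0.77 without A4. H2-D1 had the lowest adjusted p of the members, and it passed the threshold at 0.0950 when limma weighted the libraries by their quality, the only 1 of 14 alternatives that called any member (range of its adjusted p 0.0950 to 0.892).

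Summed within each mouse, H2-K1 and H2-D1 came to 35.6 ± 4.74 FPKM in controls and 74.5 ± 24.3 FPKM in depleted mice (SD, n = 3 each), 2.09 times as high (1.70 times without A4), with an exact two-sided permutation p of 0.1, the smallest this design allows. The pair held 54.9, 52.0 and 53.3% of the summed heavy chains in A1, A2 and A3 and 58.2, 63.4 and 54.5% in A4, A5 and A6. The groups overlapped here and the shares differed by less than this design can separate (exact two-sided permutation p = 0.2). Near-identical genes share reads, which the authors' quantification divides between them. Of the 75-base windows of the longest coding transcript, the length of 1 read, 1.55% of those of H2-K1 and 7.10% of those of H2-D1 recur in another gene, the lowest shares among the members of the H2-K, H2-D, H2-Q and H2-T regions.

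Among the non-classical heavy chains H2-T22 had the largest fold change. H2-T22, whose product is a ligand of some gamma-delta T cells, was at 4.56, 5.45 and 8.48 FPKM in controls and at 12.95, 8.57 and 13.3 FPKM in the depleted A4, A5 and A6. The groups did not overlap, but A5 was close to the highest control, A3. Its log2 fold change was 0.83 with an SE of 0.223 (limma, adjusted p = 0.370), and 0.75 without A4. It shares 26.1% of its windows with other genes, the highest share among the members, and most of them with its neighbour H2-T10. Summed with H2-T9 and H2-T10 of the same gene cluster, the level was 12.6, 10.54 and 14.6 FPKM in controls and 25.0, 14.8 and 15.0 FPKM in the depleted A4, A5 and A6. The sum, chosen after the values had been seen, was 1.45 times as high in depleted mice (1.18 times without A4), with A5 and A6 just above A3 (exact two-sided permutation p = 0.1). H2-T9 alone was at 10.41 FPKM in A4 but 0.89 FPKM in A6, against 4.12 to 7.35 FPKM in controls.

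H2-Q4, which encodes the Qb-1 molecule, was at 10.44, 12.3 and 12.7 FPKM in controls and at 27.2, 13.7 and 16.7 FPKM in the depleted A4, A5 and A6. Again no depleted mouse fell among the controls, yet A5 exceeded the highest control by little. The log2 fold change was 0.60 with an SE of 0.215 (limma, adjusted p = 0.409), and 0.33 without A4. Of its windows, 21.7% recur elsewhere, most of them in Gm11131 (13.4% of all its windows), a gene with no row under that symbol in the table.

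H2-T23 and H2-M3 overlapped between the groups. H2-T23, which encodes Qa-1, the ligand of NKG2A receptors on NK cells, was at 12.1, 9.23 and 11.5 FPKM in controls and at 29.1, 10.32 and 13.55 FPKM in the depleted A4, A5 and A6. Its mean difference rested on A4, since A5 lay within the controls. The log2 fold change of 0.52, with a 95% interval from -0.19 to 1.24 (limma, adjusted p = 0.586), was 0.11 without A4. H2-M3 was at 2.09, 1.13 and 2.32 FPKM in controls and at 2.98, 4.31 and 1.86 FPKM in the depleted A4, A5 and A6, with A5 highest and A6 among the controls. Its log2 fold change of 0.49 (95% interval -0.09 to 1.07; limma, adjusted p = 0.534) was 0.48 without A4, and no 75-base window of it recurs in another gene.

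H2-Q6 and H2-Q7, which encode Qa-2 molecules, were near the floor and were not tested. H2-Q6 was listed at 0.14, 0 and 0.12 FPKM in controls and at 0, 0 and 1.40 FPKM in the depleted A4, A5 and A6, so that A6 alone stood out. H2-Q7 was at 0, 0.33 and 0.16 FPKM in controls and at 1.24, 0.18 and 0.70 FPKM in the depleted A4, A5 and A6 (exact two-sided permutation p = 0.2). These genes are closely related copies, sharing 21.1% and 21.7% of their windows with others, mostly with each other or with H2-Q4 and H2-Q5. H2-Q8 and H2-Q9 were not among the partners found. The windows were not taken from the build that the authors quantified, so the sharing may be understated. H2-Q8, a further copy, was at 2.54 FPKM in A4 and at 0 in A5 and A6. The copies H2-Q5 to H2-Q9 together, a sum chosen after the values had been seen, came to 0.89, 0.96 and 1.03 FPKM in controls and to 5.33, 0.42 and 3.36 FPKM in the depleted A4, A5 and A6. A4 and A6 were thus above the controls and A5, the library with the fewest fragments, below them (exact two-sided permutation p = 0.4). Over all H2-Q rows the sum was 14.9 ± 1.32 FPKM in controls and 23.7 ± 9.67 FPKM in depleted mice (SD, n = 3 each), with A5 at 15.4 FPKM inside the control range (exact two-sided permutation p = 0.2). The depleted mean was 1.60 times the control mean, and 1.24 times without A4.

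**Figure D2:**
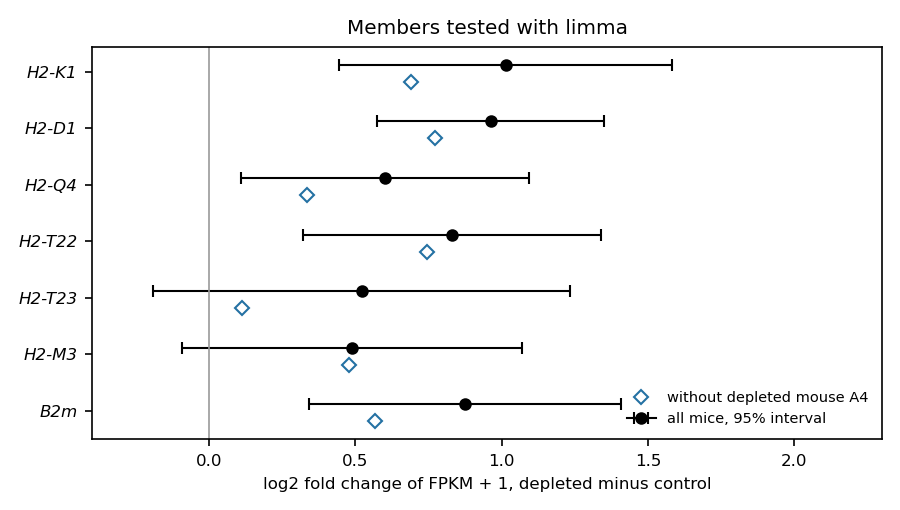
Log2 fold change of FPKM + 1 (depleted minus control, x axis) of the 7 members tested with limma, with the 95% interval over all 6 mice in black and the value without depleted mouse A4 as open diamonds. All 7 lie above 0 in both, and H2-T23 moves most, from 0.52 to 0.11, when A4 is left out.

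B2m, the light chain to which the class I heavy chains bind, was the most abundant member. It was at 97.4, 93.8 and 88.4 FPKM in controls and at 263.1, 121.7 and 157.7 FPKM in the depleted A4, A5 and A6. The controls lay close together and the depleted mice were spread widely above them. The means were 93.2 ± 4.52 FPKM and 180.8 ± 73.5 FPKM (SD, n = 3 each), a log2 fold change of 0.87 with an SE of 0.234 (limma, adjusted p = 0.370), and 0.57 without A4. No 75-base window of B2m recurs in another gene.

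The 8 heavy chains together came to 64.9, 59.4 and 75.7 FPKM in controls and to 175.6, 101.4 and 104.4 FPKM in the depleted A4, A5 and A6. Every depleted mouse was above every control, and A5 and A6 were nearly level. The mean was 1.91 times as high in depleted mice as in controls, and 1.54 times without A4 (66.7 ± 8.31 against 127.1 ± 42.0 FPKM, SD, n = 3 each, exact two-sided permutation p = 0.1, the smallest this design allows). B2m was 1.94 times as high on the same linear scale, and 1.50 times without A4. Within a mouse, B2m per heavy chain was 1.50, 1.58 and 1.17 in controls and 1.50, 1.20 and 1.51 in A4, A5 and A6, a ratio of FPKM that does not depend on the scaling of the library. The groups overlapped fully, with means of 1.42 ± 0.219 and 1.40 ± 0.176 (SD, n = 3 each; exact two-sided permutation p = 0.9). Leaving out 1 mouse at a time moved the log2 difference of the ratio between -0.14 and 0.10, so its direction is not fixed by these data.

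**Figure D3:**
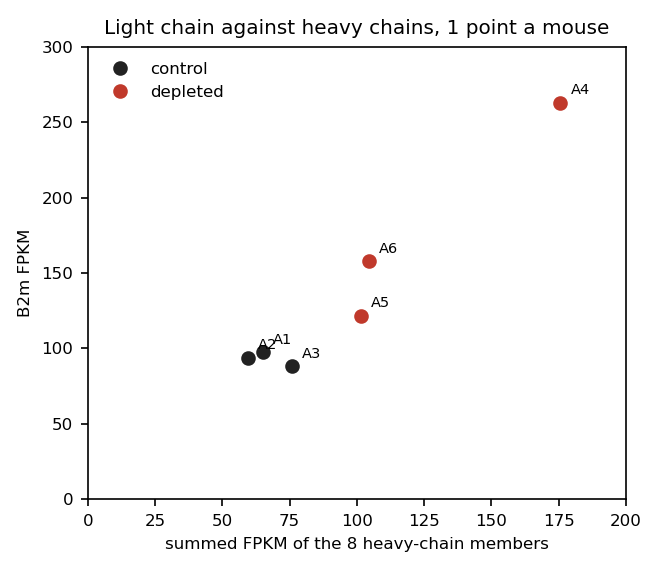
FPKM of B2m (y axis) against the summed FPKM of the 8 heavy-chain members (x axis), 1 point a mouse, controls in black and depleted mice in red. The 3 controls lie at the lower left, A5 and A6 above them on both axes, and A4 at 175.6 FPKM of heavy chains and 263.1 FPKM of B2m.

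In control cortex the levels followed the order B2m, H2-D1, H2-K1, H2-Q4, H2-T23, H2-T22, H2-M3, H2-Q7 and H2-Q6. The ranges of H2-K1 and H2-Q4, of H2-Q4 and H2-T23, and of H2-Q7 and H2-Q6 overlapped, so these neighbours cannot be ordered from 3 mice. The depleted mice gave the same order of means, but there the ranges of all neighbours from H2-D1 down to H2-T22 overlapped. H2-D1 made up 32.2 to 32.4% of the summed heavy chains in controls, and 31.9, 40.0 and 32.9% in A4, A5 and A6. H2-Q4 made up 17.9 ± 2.52% in controls and 15.0 ± 1.29% in depleted mice (SD, n = 3 each). Its groups were apart only narrowly, with 16.08% in A1, the lowest control, and 15.96% in A6. The exact two-sided permutation p was 0.1, the smallest this design allows, and the shares of the other heavy chains overlapped between the groups.

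**Figure D4:**
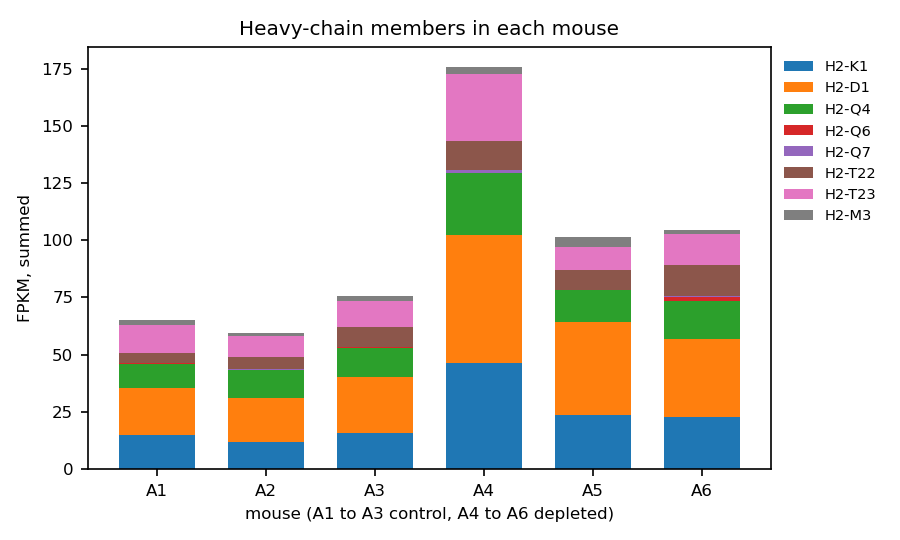
Summed FPKM of the 8 heavy-chain members in each mouse (bars start at 0, colours are genes; A1 to A3 control, A4 to A6 depleted). H2-K1 and H2-D1 fill between 52.0 and 63.4% of every bar, and the bar of A4 is the highest at 175.6 FPKM.

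On the log2 scale, the members' median deviation from the control mean was 1.34 for A4, 0.46 for A5 and 0.65 for A6. A4 was above every control in 7 of 7 members tested, and A5 and A6 in 6 of 7 each, A5 missing at H2-T23 and A6 at H2-M3. The share of all genes in which a single mouse lies above every control was not computed, so these counts have no background here. The median log2 fold change of the 7 was 0.83 (0.57 without A4), beside -0.0085 for all genes tested. By log2 fold change they ranked from 65 (H2-K1) to 335 (H2-M3) among the 14385 genes. The genes outside the members whose 6 values followed the members' median most closely, by the root-mean-square difference of log2 deviations over the 6 mice, were Pld4 (0.0601), Tgtp1 (0.0981), Fcgr1 (0.122), Stat2 (0.134) and C1qa (0.151). Pld4 is an endolysosomal exonuclease of myeloid cells, Tgtp1 an interferon-inducible GTPase, Fcgr1 a high-affinity IgG receptor, Stat2 a transducer of type 1 interferon signals and C1qa a chain of complement C1q. Tgtp1 passed the minimum level only through its depleted mice.

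Of the other class I and class I-like heavy chains, 9 of 28 were expressed enough to test. In limma 0 of 9 passed the adjusted p of 0.1 in either direction, 0 had an unadjusted p below 0.05, 2 were higher on average and 7 lower, and their median log2 fold change was -0.14 (-0.15 without A4). The highest was H2-Q5 at 0.40, which passed the minimum level only through its depleted mice, and the lowest H2-T9 at -0.35. Hfe, which regulates iron uptake, and Fcgrt, the neonatal Fc receptor, both of which also pair with B2m, were lower in every depleted mouse than in any control, 2 of 9 where 9.38% of all genes were. Fcgrt was at 9.34, 8.91 and 10.8 FPKM in controls and at 6.01, 8.83 and 8.61 FPKM in the depleted A4, A5 and A6. This gave a log2 fold change of -0.29 (limma, adjusted p = 0.532), and -0.13 without A4. H2-T24 and Mr1, which shows vitamin B metabolites to MAIT cells, differed by -0.02 and -0.14. H2-T3 and 8 genes of the H2-M group were at 0 in every mouse.

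The 13 genes of peptide supply and loading were all tested. They make and carry the peptides: the immunoproteasome subunits cut them, TAP pumps them into the endoplasmic reticulum, and tapasin and chaperones load them. In limma 0 of 13 passed the adjusted p, 3 had an unadjusted p below 0.05 with depleted mice higher (4.79% of all genes tested), the same number did not overlap (8.21%), 11 were higher on average, and the median log2 fold change was 0.34 (0.18 without A4). Psmb8, an immunoproteasome subunit, was highest, at 2.38, 1.11 and 2.17 FPKM in controls and 13.1, 2.97 and 4.63 FPKM in the depleted A4, A5 and A6. Every depleted mouse lay above the controls, with a log2 fold change of 1.27 (limma, adjusted p = 0.396), and 0.74 without A4. Tapbp (0.59), which encodes tapasin, and Psme1 (0.41), a proteasome activator subunit, also did not overlap, and were at 0.29 and 0.27 without A4. Tap1, a subunit of the peptide pump, was at 7.96 FPKM in A4 but 0.76 FPKM in A5 and 1.56 FPKM in A6, against 0.45 to 0.88 FPKM in controls, so that its log2 fold change of 1.04 was 0.35 without A4. Calr, Canx, Pdia3 and Tapbpl, the more general chaperones and a tapasin relative, lay between -0.03 (Canx) and 0.10 (Pdia3).

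Of 17 factors of class I transcription, 16 were tested. In limma 0 of 16 passed the adjusted p, 4 had an unadjusted p below 0.05 with depleted mice higher (4.79% of all genes tested), these 4 did not overlap (8.21%), and the median was 0.14 (0.11 without A4). Among them were Irf7 (2.12), Irf9 (1.04) and Stat2 (0.75), which carry interferon signals. Without A4 their log2 fold changes were 1.30, 0.51 and 0.42. Stat2 was at 6.11, 6.55 and 7.21 FPKM in controls and at 19.2, 9.08 and 9.22 FPKM in the depleted A4, A5 and A6. Irf1 (-0.15), Creb1 (-0.19) and Rela (-0.25), the p65 subunit of NF-kappaB, were lower on average with overlapping groups. The X and Y box factors Rfx5, Rfxap, Rfxank, Nfya, Nfyb and Nfyc lay between -0.05 (Nfyc) and 0.19 (Rfxank). Nlrc5, the class I transactivator, was too low to test: it was at 0.14, 0.06 and 0.07 FPKM in controls and at 1.73, 0.20 and 0.09 FPKM in the depleted A4, A5 and A6.

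**Figure D5:**
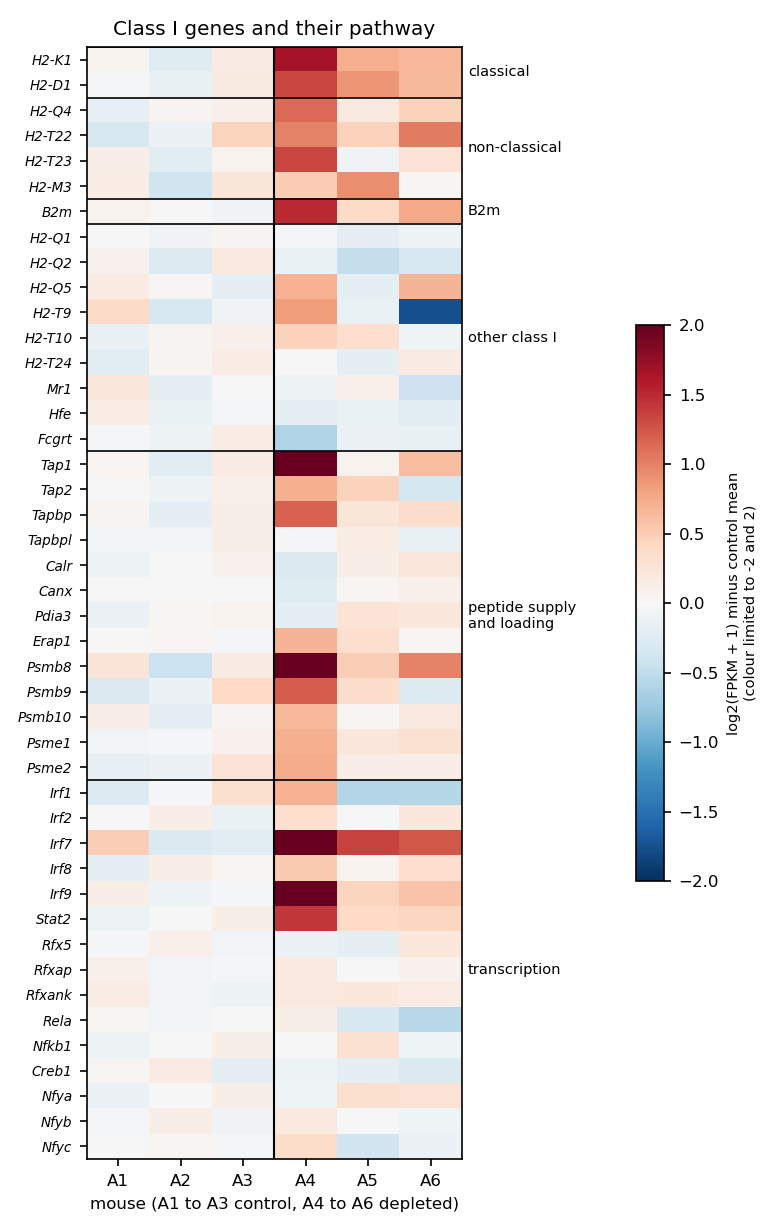
Log2(FPKM + 1) minus the control mean (colour, limited to -2 and 2) in each mouse for the tested members, other class I genes, genes of peptide supply and loading, and most factors of class I transcription (rows), with controls left and depleted mice right of the line. The members are higher in most depleted mice, with A4 the highest in 5 of 7, H2-T22 highest in A6 and H2-M3 in A5. Of the other class I genes 2 of 9 are higher on average and 7 lower.

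The cells that read class I left little RNA in these libraries. Of 13 T and NK cell markers in the table only Cd4 reached the minimum level (log2 fold change -0.20; limma, adjusted p = 0.634). The list summed to between 3.01 and 3.91 FPKM in controls and between 2.36 and 4.03 FPKM in depleted mice. Most of that sum was Cd4 itself, which ranged from 2.42 to 3.08 FPKM among controls and from 1.98 to 2.66 FPKM among depleted mice. Cd3d stood out in A4 with 1.08 FPKM, while no other mouse exceeded 0.13 FPKM. Cd3g reached 0.42 FPKM in A4 and no more than 0.05 FPKM elsewhere. Cd3e, Cd2 and Gzma went the other way, with 0 in every depleted mouse and low values in some controls. Ncr1 and Gzmb were at 0 in every mouse. The part of T cells in the class I level of A4 was not tested. Cd8a, the co-receptor for the classical chains, was at 0.15, 0.09 and 0.16 FPKM in controls and at 0.02, 0.18 and 0.03 FPKM in the depleted A4, A5 and A6. Of the 11 class I receptors in the table only Pilra, best known for binding sialylated glycoproteins, was tested (0.05), and Klrc1 and Klrc2, which encode NKG2 receptors of Qa-1, were at 0 in every mouse.

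Markers of the cell types that can carry class I RNA are given beside these results. The 12 microglia markers summed to between 114.3 and 139.0 FPKM in controls and between 118.7 and 151.0 FPKM in depleted mice, with a median log2 fold change of 0.03 (-0.03 without A4). They ran from Fcrls (-0.90) and P2ry12 (-0.35), both lower in every depleted mouse, to Aif1 (0.74), higher in every depleted mouse. Of the 12, 3 were higher without overlap (8.21% of all genes tested) and 2 were lower (9.38%). The 9 endothelial and mural markers summed to between 55.2 and 58.6 FPKM in controls and between 59.9 and 61.6 FPKM in depleted mice, with no overlap. Their median log2 fold change was 0.10, and only 1 of the 9, Cldn5, was higher without overlap when taken singly, where 8.21% of all genes tested were. Of these 9, 6 were higher on average and 3 lower, from Rgs5 of pericytes (-0.40) to the endothelial Pecam1 (0.34). The 9 monocyte and border macrophage markers summed to between 6.68 and 8.35 against 4.75 and 9.89 FPKM. Gfap, a marker of reactive astrocytes, was at 88.3, 64.5 and 84.2 FPKM in controls and at 300.3 FPKM in A4, 108.5 FPKM in A5 and 120.1 FPKM in A6. Of the 6 astrocyte markers, Gfap included, 2 were higher on average and 4 lower, with a median log2 fold change of -0.08 and the lowest at Aldh1l1 (-0.21). Choroid plexus markers, whose tissue can be caught in a dissection, summed to between 166.9 and 323.3 FPKM in controls and between 46.0 and 70.2 FPKM in depleted mice. Most of that sum was Ttr (log2 fold change -1.91). Of the 5 choroid plexus markers tested, 5 were lower on average, but only 1, Ttr, was lower without overlap (9.38% of all genes tested). The 6 meningeal markers summed to between 31.2 and 37.7 against 28.4 and 35.1 FPKM. The 6 oligodendrocyte markers summed to between 2880 and 3130 against 2521 and 2590 FPKM, also with no overlap. The part of any of these in the class I differences was not tested.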

How the data were processed

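Poly(A)-selected libraries of cortical RNA were sequenced with 75-base paired-end reads. The authors aligned with TopHat and quantified known transcripts with RSEM. The table the authors deposited holds FPKM per gene and mouse, scaled by TMM and given to 2 decimals. The submitters' processing notes also name DESeq and build mm9, and versions are not given in the sources used here. The study's methods test raw counts at an adjusted p of 0.1. With FPKM alone that test could not be run, and only its threshold was kept.

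The 14385 of 23366 genes whose mean reached 0.5 FPKM were put on the log2(FPKM + 1) scale, which understates the change of low genes. Groups were compared in R 4.3.3 by limma 3.58.1 (lmFit, eBayes with trend) with Benjamini-Hochberg adjustment over all of them. For single values and sums the exact permutation test, two-sided, was used on the difference of means, with mice as replicates. The members and lists were chosen with earlier results of these data known. Named genes were the members, genes of the pathway lists, with the highest and lowest of each, and the 5 genes most like the members. Single marker genes were named after their values were seen. The 9 promoter windows came from RefSeq (GRCm38.p6), and shared 75-base windows from transcripts of GENCODE M21 (GRCm38), both matched by symbol, since the build of the files differs. H2-T9 has no entry there under that symbol, so its shared sequence was not computed. H2-Q8, H2-Q9 and H2-L, which have values here, were partners of no member, so the shares may be too low. Depth was estimated from the spacing of low values, over 1813 genes with 1 transcript, of which between 124 (A5) and 319 (A1) gave values. Fits and the depth estimate were tested on simulated data. Full transcript lengths were used in the estimate and in its simulated check, so that check could not show a bias from length, and the depths are approximate. Other steps used scipy 1.17.1, pandas 2.3.3 and numpy 2.4.6 under Python 3.11.15, and matplotlib 3.10.9. Alternatives were another pseudocount (0.1), no filter, a minimum of 1 FPKM, TPM, median-of-ratios and quantile scaling, eBayes without trend, array weights and leaving out each mouse in turn. Added after the data were seen were 2 sums of closely related genes. Values of 1 gene of the transcription list are not reported here.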

Additional observations from a re-analysis of the deposited data

How the results depend on the processing

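Of 98 log2 fold changes of the 7 members under 14 alternatives, 0 reversed, 97 stayed on their side of the threshold and 1, H2-D1 with array weights, passed it (0.88, limma adjusted p = 0.0950), so that members called went from 0 to 1. Over all genes, 4 were called in limma, 2 without the trend, 20 with array weights and between 2 and 29 when 1 mouse was left out: 2 without A1, 29 without A5 and 8 without A6. Members called stayed at 0 in each of those 6 fits. The log2 difference of B2m per heavy chain, -0.0088, turned to 0.04 without A1, 0.08 without A2 and 0.10 without A5, and ranged from -0.14 to 0.10. Leaving out 1 mouse gave a median of the members between 0.57 and 1.00. The log2 ratio of the summed heavy chains then lay between 0.63 and 1.07, and that of the summed H2-Q rows between 0.31 and 0.91. Between 5 and 6 members were without overlap, but leaving out a mouse can never lower this count, so it is no measure of stability. No paired analysis was possible because the labels give no litter or pair for any mouse. Depth limits H2-Q6 and H2-Q7 most, whose values rest on few fragments, and A5, at about 7.14 M fragments, is the least precise library. The causes of these shifts were not tested.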
